A study of Drosophila melanogaster with 27 samples.

Results

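The tissue described here is the part of the Drosophila melanogaster eye imaginal disc that lies behind the morphogenetic furrow, cut out by micro-dissection from wandering instar 3 larvae of the strain w1118. Its RNA was measured on 4 of the 27 arrays of the series, chosen by their titles and by no measured value. Each array is a glass slide printed with PCR products and carries a test RNA in one dye and a common reference RNA in the other. The reference was whole eye-antennal discs, also of w1118, a strain that makes normal eyes apart from pigment. The other 23 arrays hold whole eye-antennal discs of 8 mutant conditions against the same reference. These are roX63 (3 arrays) and Su(roDom)519 (3), which have extra R8 photoreceptors per the series' design text, and ato1 (3), hh1 (4), roDom homozygotes (3) and heterozygotes (2) and E(roDom)2033 homozygotes (3) and heterozygotes (2), which it describes as stop-furrow mutants. Per the labels, test RNA went through 2 rounds of T7 amplification and the reference through 1. No control sample was hybridised against the reference, so in a test of the ratio against 0 the reference stands for 1 control sample, whose own spread is not measured, and any effect of the added round is included. The difference between posterior fragments and the mutants has neither limit, but it compares a fragment of a normal disc with whole mutant discs.

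In the larval eye disc the furrow sweeps from posterior to anterior. Cells in front of it divide and are unpatterned, and cells behind it form ommatidial clusters. The founder R8 of each cluster is chosen by the proneural gene ato, and the other photoreceptors are then recruited through the EGF receptor. Hedgehog made by the differentiating cells drives the furrow on. The reference holds the anterior eye disc, the antennal disc and the future head capsule as well, none of which belongs to the fragment. In such pooled tissue, fewer cells of a type and less RNA per cell cannot be told apart.

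Replicate 1 stood apart from the other posterior arrays in quality. On it 56% of the spots used were not found by the scanner software, against 3.81% to 5.80% on replicates 2 to 4, and 48.6% of probes were above background in either channel, against 93.7% to 95.4%. Its median net test signal was 35 intensity units, against 100.0 to 128 on the others. It is also the only array of its print series and was scanned alone on its day, while replicates 2 to 4 share a scanning day with 1 mutant array, ato1 replicate 1. Replicate 4 is the only posterior array with the test RNA in Cy5.

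Replicate 1 was therefore set against a fit that did not hold it. Of 555 probes called from replicates 2 to 4, 502 (90.5%) had the same sign on replicate 1. Where its spot was found this held for 390 of 425 probes, and where the spot was not found for 112 of 130. Turned to the direction of the call, the median log2 ratio on replicate 1 was 0.53 for found spots, against 0.68 for the mean of replicates 2 to 4 at the same probes. For spots not found it was 0.17 against 0.54. Probes called from the other arrays were chosen for large values there, so a held-out array can read smaller for that reason alone, and each replicate was given the same check. Left out in turn, replicates 2, 3 and 4 had the same sign at 85.4%, 92.4% and 98.6% of the probes called without them, with median values of 0.38, 0.45 and 0.86, against 0.42 for replicate 1 over all its spots. Replicate 1 thus lay within the range of the other arrays in both measures. Over all 16492 probes its log2 ratios correlated with replicates 2, 3 and 4 at 0.31, 0.35 and 0.52, and the other 3 pairs ran from 0.34 to 0.59. These correlations are across probes, which are not independent.

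**Figure D1:**
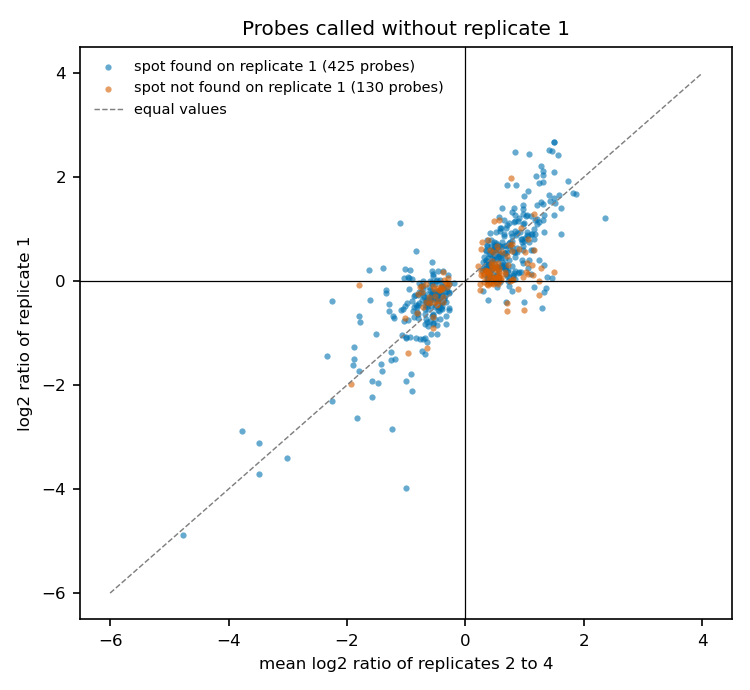
Each point is 1 of the 555 probes called against the reference without replicate 1, with the mean log2 ratio of replicates 2 to 4 on the x axis and that of replicate 1 on the y axis. Blue points are the 425 probes whose spot was found on replicate 1 and orange points the 130 whose spot was not found, which lie nearer to 0 on the y axis; the dashed line marks equal values.

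The comparison of posterior fragments with whole discs asks which transcripts are enriched or depleted behind the furrow. In limma, with the dye as a term and Benjamini-Hochberg adjustment over 16492 probes, 780 probes passed an adjusted p under 0.05. That is 4.73% of probes, 454 higher (2.75%) and 326 lower (1.98%), and 130 of them changed by at least 2-fold. Of the 780 probes, 709 had the same sign on every posterior array that measured them. Against the mean of the 8 mutant conditions 1409 probes (8.54%) passed, 906 higher (5.49%) and 503 lower (3.05%). Counted by gene with the brightest probe of each, 5.48% of genes passed against the reference and 9.7% against the mutants. Of these, 365 of 11509 genes (3.17%) were higher and 266 (2.31%) lower than the reference, and 711 (6.18%) were higher and 405 (3.52%) lower than the mutants. Gene lists are read against these shares and against medians over all genes of 0.00 against the reference and -0.01 against the mutants. All 4 posterior arrays lay outside the range of the 23 mutant arrays in 175 of 11509 genes (1.52%), the share against which such statements on single genes are read. Under the fixed day block described next, 42 of the 88 genes named here with a call against the mutants kept it. Fewer probes passed without replicate 4 (279) or replicate 3 (511). When scanning day was a fixed block, 408 probes passed and 126 of these were among the 780. In that fit the value against the reference is a mean over all scanning days at equal weight, including days without a posterior array. Replicate 1, alone on its day, sets the value of that day, so it enters this mean but not the difference from the mutants. The day of replicates 2 to 4 is tied to the other groups through ato1 replicate 1 alone. Fitted values under this block can therefore lie outside all 4 posterior arrays, as for mfas at 2.80, whose highest array read 2.51.

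Genes of the differentiating neuron stood higher in posterior fragments, though most of a broad list did not pass. Of 24 measured genes for neuronal maturation 8 rose and none fell, with a list median of 0.08 on the log2 scale. The gene chp (chaoptin, an adhesion protein of the photoreceptor surface) read 2.21, 1.76, 0.37 and 1.68 on replicates 1 to 4. Replicate 3 was the low one, yet all 4 arrays lay above the 23 mutant arrays, which ran from -3.59 to 0.36. The fitted change was 1.43 ± 0.24 against the reference (SE, n = 4 arrays, limma adjusted p = 0.00093) and 3.05 ± 0.26 against the mutants. Each SE uses a spread pooled over all 27 arrays. The sodium pump subunit gene nrv3 read 1.90, 1.34, 0.98 and 1.61, also above every mutant array, and rose by 1.42 ± 0.18, with another probe of the gene at 0.03.

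Other neuronal genes rose by less, and several were weak on replicate 1. The zinc-finger gene scrt, a repressor of non-neuronal genes, read 0.31, 1.52, 1.4 and 1.03, and the ankyrin gene Ank2 read 0.40, 1.66, 1.15 and 0.93. The adhesion gene Nrt (neurotactin) read -0.12, 1.3, 0.99 and 1.21, and the tachykinin receptor gene TkR86C read 0.05, 1.67, 1.55 and 1.15. In these 4 genes replicate 1 was the lowest array and replicate 2 the highest. Fitted rises were 1.04 ± 0.22 for scrt, 0.98 ± 0.22 for Ank2 (other probes from -0.03 to 0.24), 0.84 ± 0.21 for Nrt (other probes from -0.07 to -0.03) and 1.02 ± 0.25 for TkR86C. The adhesion molecule genes Fas2 (0.69, 1.01, 0.84 and 0.91) and CadN (0.69, 0.79, 0.61 and 0.84) varied little between arrays and rose by 0.81 ± 0.22 and 0.75 ± 0.13. Synaptic genes on the same list stayed near 0, among them Syt1 at -0.01, brp at 0.08 and nSyb at -0.10.

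Among 25 genes of photoreceptor fate 2 rose, 2 fell and 21 did not pass, with a median of 0.05. The Runx gene run, which marks R7 and R8, was even at 1.92, 1.93, 1.52 and 1.77, above all 23 mutant arrays (-1.38 to 1.10), and rose by 1.75 ± 0.17 (limma adjusted p = 2.4e-06). Pph13, a homeobox gene of rhabdomere formation, read 1.34, 0.32, -0.10 and 0.80, with a fitted change of 0.63 ± 0.15 (adjusted p = 0.016). The 2 that fell were mirr, a dorsal eye selector of the Iroquois family (-2.63, -1.07, -1.94 and -2.51), and ttk, a repressor of neuronal fate (-1.52, -1.06, -1.4 and -1.33), with fitted changes of -2.33 ± 0.25 and -1.39 ± 0.26. Other probes of ttk lay from -0.58 to 0.02.

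Several standard photoreceptor markers did not pass against the reference. The receptor tyrosine kinase gene sev of R7 read 0.58, 0.52, 0.35 and 0.89, with a fitted value of 0.62 ± 0.18 (limma adjusted p = 0.052). It was called without background subtraction (0.62), with print-tip loess (0.63) and with scale normalization between arrays (0.77). The filter on dim probes (0.62) and the stricter score limit (0.61) also gave a call, and the other alternatives did not. The pan-neuronal gene elav was at 0.37 ± 0.20 (adjusted p = 0.44), the photoreceptor transcription factor gene gl at 0.22 ± 0.11 (adjusted p = 0.32) and boss, the R8 ligand of sev, at 0.15 ± 0.06 (adjusted p = 0.23). Of the 8 photoreceptor markers used to check the label, chp, nrv3, scrt and run thus passed and elav, sev, boss and gl did not, and all 8 had a fitted value above 0. Against the mutants sev stood higher by 1.82 ± 0.19, with all 4 posterior arrays above the 23 mutant arrays (-2.42 to -0.18). The fate genes lz (1.28 ± 0.23) and phyl (1.16 ± 0.32) also passed against the mutants while lying at 0.12 and 0.07 against the reference. With scanning day as a fixed block phyl moved to 1.63 ± 0.24 against the reference and was called (limma adjusted p = 0.0044).

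The DNA-binding gene retn read 0.97, 1.0, 0.77 and 0.77, above every mutant array, and stood 2.03 ± 0.15 above the mutants and 0.80 ± 0.14 above the reference. The corepressor gene nvy (nervy) read 1.45, 0.88, 0.69 and 0.61, with all mutant arrays below 0 (-3.47 to -0.28), and stood 2.07 ± 0.27 above the mutants, while against the reference it was at 0.80 ± 0.25 (limma adjusted p = 0.071), and at 2.10 ± 0.43 and called under the fixed day block.

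Several of these calls rest on few arrays. Fas2 lost its call without any 1 of the 4 arrays (0.72 to 0.88). For Nrt the call ended without replicate 2 (0.70), 3 (0.80) or 4 (0.69), and for TkR86C likewise (0.86, 0.90 and 0.89). For scrt and Ank2 this held without replicate 2 (0.90 and 0.79) or 4 (1.03 and 0.95), and for Pph13 without replicate 1 (0.37) or 4 (0.58). Against the mutants phyl lost its call without replicate 2 (1.07), 3 (0.89) or 4 (0.97). With the scanning day as a fixed block nrv3, run, Fas2 and CadN kept their calls, and chp (1.15 ± 0.57), scrt, Ank2, Nrt, TkR86C, Pph13, retn (0.66 ± 0.32), mirr (-1.37 ± 0.37) and ttk (-0.41 ± 0.33) did not. The same block also ended the calls against the mutants of chp (2.50 ± 0.69), sev (1.20 ± 0.48), lz (1.07 ± 0.51), Pph13 (0.86 ± 0.33) and mirr (-0.72 ± 0.45). Within the shared scanning day the mean of replicates 2 to 4 lay above ato1 replicate 1 by 4.23 for chp, 3.75 for nrv3 and 3.11 for run, and by 0.18 for ttk.

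**Figure D2:**
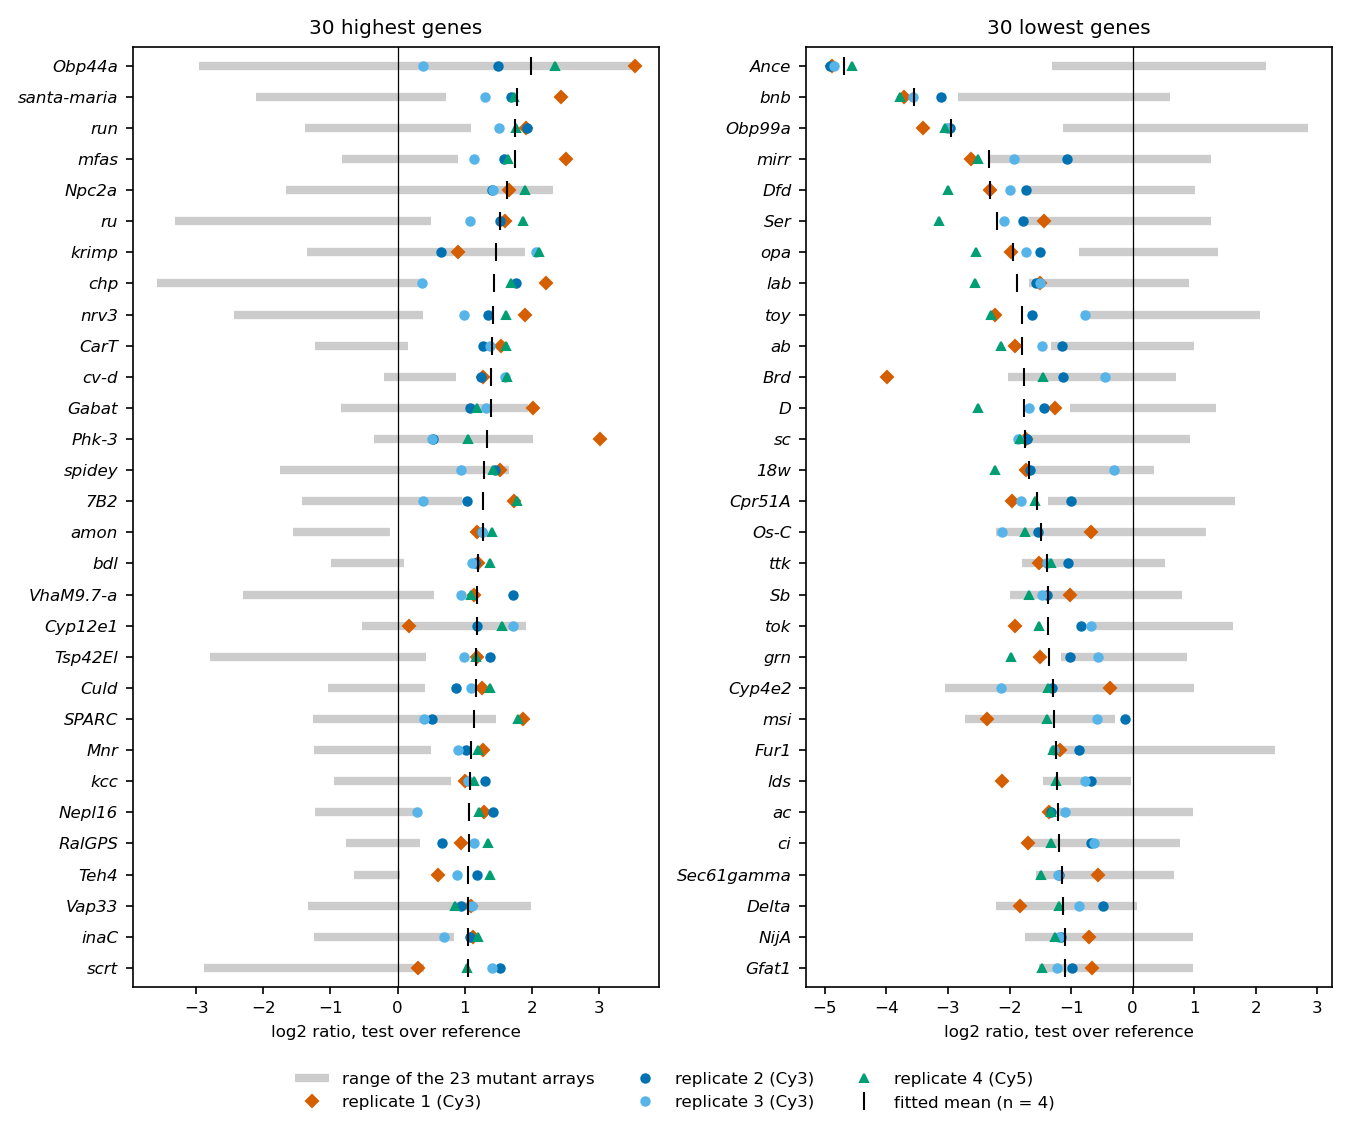
Log2 ratios over the reference of the 30 highest and the 30 lowest genes passing the test in posterior fragments, with a symbol for each of the 4 arrays, a black tick for the fitted mean and a grey bar for the range of the 23 mutant arrays. In 18 of the 30 highest genes and 6 of the 30 lowest all 4 posterior arrays lie outside the grey bar, against 1.52% of all genes; the genes shown were chosen by their values.

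EGF receptor signalling recruits photoreceptors, and the proteases that release its ligand were raised. Of 20 measured genes of the pathway 2 rose, 1 fell and 17 did not pass, with a median of -0.05. Both risers encode rhomboid proteases that cleave the ligand Spitz: ru (roughoid) read 1.60, 1.52, 1.08 and 1.86 and rho (rhomboid) 0.91, 1.49, 1.29 and 0.74. All 4 arrays of each gene lay above every mutant array, which reached 0.50 for ru and -0.25 for rho. The fitted rises were 1.52 ± 0.22 (limma adjusted p = 0.00025) and 0.99 ± 0.21 (adjusted p = 0.0069). The gene of the MAP kinase, rl (rolled), read -0.64, -0.40, -0.60 and -0.64 and fell by 0.61 ± 0.11, with another probe at -0.10. The rise of rho was not called without replicate 4 (0.99, adjusted p = 0.063), nor that of ru with the scanning day as a fixed block (1.11 ± 0.32).

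The ligand and the feedback inhibitors did not differ from the reference by this test, but they did from the mutants. The ligand gene spi was at 0.40 ± 0.22 against the reference (limma adjusted p = 0.43) and at 1.19 ± 0.24 against the mutants (adjusted p = 0.0023). The secreted inhibitor aos (argos) read 0.22, 0.78, 0.78 and 0.16, all above the mutant arrays (-2.56 to -0.24), and stood 1.62 ± 0.15 above the mutants. The ETS repressor gene aop (yan) was at -0.07 against the reference and 1.33 ± 0.27 above the mutants. Of the 20 genes 5 were higher than the mutants, none was lower, and the median difference was 0.22. With scanning day as a fixed block spi (0.36 ± 0.30) and aop (1.29 ± 0.44) were not called against the mutants, and aop was also not called with roDom homozygote replicate 2 turned by its header (1.26, adjusted p = 0.058).

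Most genes of vision did not pass. Of 23 measured genes for phototransduction and the visual cycle 3 rose and none fell, with a median of 0.05. Only 7 of the 23 were detected in the test channel of all 4 posterior arrays. The scavenger receptor gene santa-maria, needed for carotenoid uptake in rhodopsin synthesis, read 2.43, 1.68, 1.29 and 1.73 and rose by 1.78 ± 0.17 (limma adjusted p = 2.6e-06). The rhodopsin and TRP chaperone gene Xport-A read 0.59, 0.87, 1.14 and 1.32 and rose by 1.02 ± 0.11. The eye protein kinase C gene inaC read 1.12, 1.07, 0.69 and 1.19 and rose by 1.05 ± 0.16. All 4 arrays of santa-maria and Xport-A lay above all mutant arrays, whereas for inaC the mutants reached 0.84. The rhodopsin genes were at or near 0: ninaE read -0.08, 0.06, 0.13 and -0.10, Rh3 was at -0.03, Rh4 at -0.06, Rh5 at 0.31 and Rh6 at 0.21, none passing. The carcinine transporter gene CarT, which recycles histamine in photoreceptors and is on no list, read 1.54, 1.27, 1.37 and 1.61, above every mutant array (at most 0.15), and rose by 1.4 ± 0.11 (adjusted p = 1.1e-07).

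Among 20 genes of eye pigment 4 rose and 1 fell, with a median of 0.01. The kynurenine hydroxylase gene cn of the brown pigment path read 1.16, 0.81, 0.55 and 1.28 and rose by 0.97 ± 0.14, above every mutant array. Granule genes changed by less: p (0.68 ± 0.18), the transporter gene st (0.45 ± 0.10) and dor (0.33 ± 0.09) rose, and or fell by 0.44 ± 0.10. The white gene w itself, mutated in w1118, was at -0.05. These granule calls were fragile. The call of dor was lost without any 1 array (0.30 to 0.36), that of p without replicate 1 (0.67), 2 (0.65) or 4 (0.60), that of st without replicate 1 (0.35) or 4 (0.38), and that of or without replicate 2 (-0.43), 3 (-0.38) or 4 (-0.44). With the scanning day as a fixed block santa-maria, Xport-A and CarT kept their calls, inaC (0.98 ± 0.27), cn (0.94 ± 0.27), st, dor and or did not, and p turned to -0.13 ± 0.31. Against the mutants that block ended the call of st (0.28 ± 0.26) and turned p to -0.18 ± 0.37.

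Other genes among the 30 highest belong to no list. The prohormone convertase gene amon read 1.18, 1.25, 1.26 and 1.41 and rose by 1.27 ± 0.14 (limma adjusted p = 8.6e-06). Its helper protein gene 7B2 was less even at 1.74, 1.03, 0.38 and 1.78, and rose by 1.28 ± 0.25. For amon all 4 posterior arrays were above 0 and all 23 mutant arrays below it (-1.56 to -0.11), whereas 7B2 overlapped the mutants, which reached 0.95. The immunoglobulin superfamily gene bdl (borderless), which acts in photoreceptor axon tiling, read 1.20, 1.15, 1.11 and 1.37 and rose by 1.20 ± 0.11. The sodium channel auxiliary subunit gene Teh4 read 0.60, 1.18, 0.89 and 1.38 and rose by 1.05 ± 0.09, with the low value on the array where its spot was not found. Culd, a CUB-domain protein gene of photoreceptors, read 1.25, 0.87, 1.09 and 1.38 and rose by 1.16 ± 0.11. Each of these 3 genes lay above all mutant arrays.

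A further group has roles in ion balance, adhesion and metabolism. The exchange factor gene RalGPS (1.06 ± 0.11, another probe at 0.97) and the potassium chloride cotransporter gene kcc (1.07 ± 0.18, another probe at 0.03) rose with all 4 arrays above the mutants. So did the proton pump subunit gene VhaM9.7-a (1.18 ± 0.19, another probe at 0.79), the tetraspanin gene Tsp42El (1.17 ± 0.22, other probes from 0.87 to 1.27) and the neprilysin-like gene Nepl16 (1.07 ± 0.16). The fasciclin-like gene mfas read 2.51, 1.59, 1.14 and 1.64 and rose by 1.74 ± 0.24, with other probes from 0.12 to 1.79. It was 1 of 2 risers among 30 genes of axon guidance and adhesion, a list with none lower and a median of 0.00. The other, gogo, a receptor of photoreceptor axons, read 0.19, 0.40, 0.33 and 0.53 and rose by 0.35 ± 0.07. Another probe of gogo was at -0.03, and the spot of the probe used was not found on replicate 1. The vitellogenin-like gene cv-d of BMP transport in the wing read 1.27, 1.24, 1.60 and 1.62, above all mutants, with other probes from -0.13 to 0.06. The GABA transaminase gene Gabat (1.39 ± 0.18) and the sterol-binding gene Npc2a (1.62 ± 0.22) rose too, and both overlapped the mutant arrays.

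Of the remaining highest genes krimp, a Tudor-domain gene of the piRNA pathway, read 0.90, 0.65, 2.06 and 2.10 and rose by 1.46 ± 0.29, with mutant arrays up to 1.90. The cytochrome P450 gene Cyp12e1 read 0.17, 1.19, 1.72 and 1.56 (1.18 ± 0.23), and replicate 1 was again the low array. The steroid dehydrogenase gene spidey (1.29 ± 0.29) and the membrane contact gene Vap33 (1.05 ± 0.27) were more even, at 0.94 to 1.52 and 0.85 to 1.10, and both overlapped the mutants. Mnr rose by 1.09 ± 0.16, with other probes from -0.09 to 0.05. CRMP, whose protein belongs to the collapsin response mediator family, read 1.76, 1.29, 0.58 and 1.01, above every mutant array, and rose by 1.04 ± 0.23, with another probe at 0.16.

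Values differed widely between arrays in some secreted proteins. The odorant-binding protein gene Obp44a read 3.53, 1.5, 0.38 and 2.34, and the pherokine gene Phk-3 read 3.02, 0.53, 0.51 and 1.04. Replicate 1 was the highest array in both and replicate 3 the lowest. Obp44a lost its call without replicate 1 (1.45, limma adjusted p = 0.15) or 4 (1.87, adjusted p = 0.15), and Phk-3 without replicate 1 (0.75, adjusted p = 0.068). Without replicate 4 the calls of 7B2 (1.10), gogo (0.27), krimp (1.21), Cyp12e1 (1.03) and spidey (1.19) were also lost, as was that of krimp against the mutants (1.29). Vap33 lost its call without any 1 array (1.0 to 1.18), and CRMP without replicate 1 (0.89) or 4 (0.94). Under the fixed day block 11 of the 23 called genes of these 4 paragraphs kept their calls. Those of Vap33 (0.03 ± 0.36), krimp (1.68 ± 0.66), spidey (2.23 ± 0.55), Mnr (0.25 ± 0.26) and CRMP (1.67 ± 0.54) were lost, and 7B2 (0.95 ± 0.63), Culd (0.48 ± 0.20), RalGPS (0.59 ± 0.21), gogo (0.24 ± 0.16), VhaM9.7-a (1.11 ± 0.41), Nepl16 (0.93 ± 0.38) and Obp44a (2.13 ± 0.85) did not. Against the mutants it ended the calls of 7B2 (1.14), Culd (0.49), RalGPS (0.81), gogo (0.63), Gabat (1.34), VhaM9.7-a (1.68), Nepl16 (1.54), Obp44a (2.09), krimp (2.03) and Mnr (0.60).

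Several transcription factors of the anterior eye and the head fell. Of 17 genes for head capsule and peripodial membrane 5 fell and none rose, with a median of -0.16. The Hox gene lab (labial) read -1.5, -1.58, -1.51 and -2.56 and the Hox gene Dfd (Deformed) -2.31, -1.74, -2.0 and -3.01. The zinc-finger gene opa read -1.97, -1.5, -1.73 and -2.55 and the Sox gene D (Dichaete) -1.26, -1.45, -1.68 and -2.52. In these 4 genes replicate 4, the array with the dyes swapped, was the lowest. Fitted falls were -1.88 ± 0.23 for lab, -2.31 ± 0.21 for Dfd, -1.94 ± 0.22 for opa and -1.76 ± 0.26 for D, and opa and D lay below every mutant array. The test channel of Dfd was above background on 2 of 4 posterior arrays and that of opa and D on 3, so the sizes rest partly on dim signal. The odd-skipped family gene bowl fell by 1.07 ± 0.21, with other probes from -0.05 to 0.01.

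The Pax6 genes, which specify the eye before differentiation, were the lower members among 15 genes of retinal determination. The gene toy read -2.23, -1.64, -0.77 and -2.30 and fell by 1.80 ± 0.34 (limma adjusted p = 0.0026), and ey read -1.16, -0.74, 0.01 and -0.82, with a fitted change of -0.78 ± 0.22 (adjusted p = 0.044). In both, replicate 3 was nearest to 0. The homeobox gene hbn, at 0.26, 0.77, 0.48 and 0.76, was the single riser of that list (0.58 ± 0.13, other probes from -0.04 to 0.14), whose median was 0.01. The retinal gene eya, used on both sides of the furrow, was at 0.37 ± 0.23 against the reference and 1.63 ± 0.25 above the mutants. The remaining anterior markers did not pass: hth was at -0.51 ± 0.17, tsh at -0.25 ± 0.12 and Optix at -0.10 ± 0.10. The GATA factor gene grn read -1.51, -1.02, -0.56 and -1.98 and fell by 1.35 ± 0.17.

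Antennal markers were not lower as a list, although the labels place no antennal disc in the fragment. Of 22 genes 1 fell, none rose and the median was 0.01. Only 7 of the 22 were detected in the test channel of all 4 posterior arrays, so this median rests largely on dim signal. It cannot show whether antennal RNA was depleted. The gene that fell, ab (abrupt), a BTB zinc-finger gene, read -1.91, -1.15, -1.47 and -2.14 (-1.80 ± 0.20, limma adjusted p = 8.6e-06). The antennal selectors did not pass, with Dll at -0.17 ± 0.16, ct at 0.01 ± 0.05 and al at -0.48 ± 0.21, and Lim1 was detected in the test channel of 1 posterior array. Of the markers used to check the label, chp, nrv3, scrt, run, toy and ey thus passed. The markers elav, sev, boss, gl, hth, tsh, Optix and these antennal probes did not. Against the mutants ey was at -0.38 ± 0.24 and not called. The call of ey was lost without replicate 1 (-0.59), 2 (-0.72) or 4 (-0.84) and without the dye term (-0.68), that of bowl without the dye term (-0.89), and that of hbn without replicate 2 (0.51) or 4 (0.51). Against the mutants lab lost its call without replicate 4 (-0.96, adjusted p = 0.064). With the scanning day as a fixed block Dfd (-1.83 ± 0.48), D (-0.62 ± 0.32), grn (-0.91 ± 0.37) and hbn (-0.03 ± 0.19, the sign turned) were not called, the other 6 genes of these 3 paragraphs were, and eya lay 0.21 ± 0.40 above the mutants. Dfd (-1.20), D (-0.86), grn (-0.51) and hbn (0.23) also lost their calls against the mutants.

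**Figure D3:**
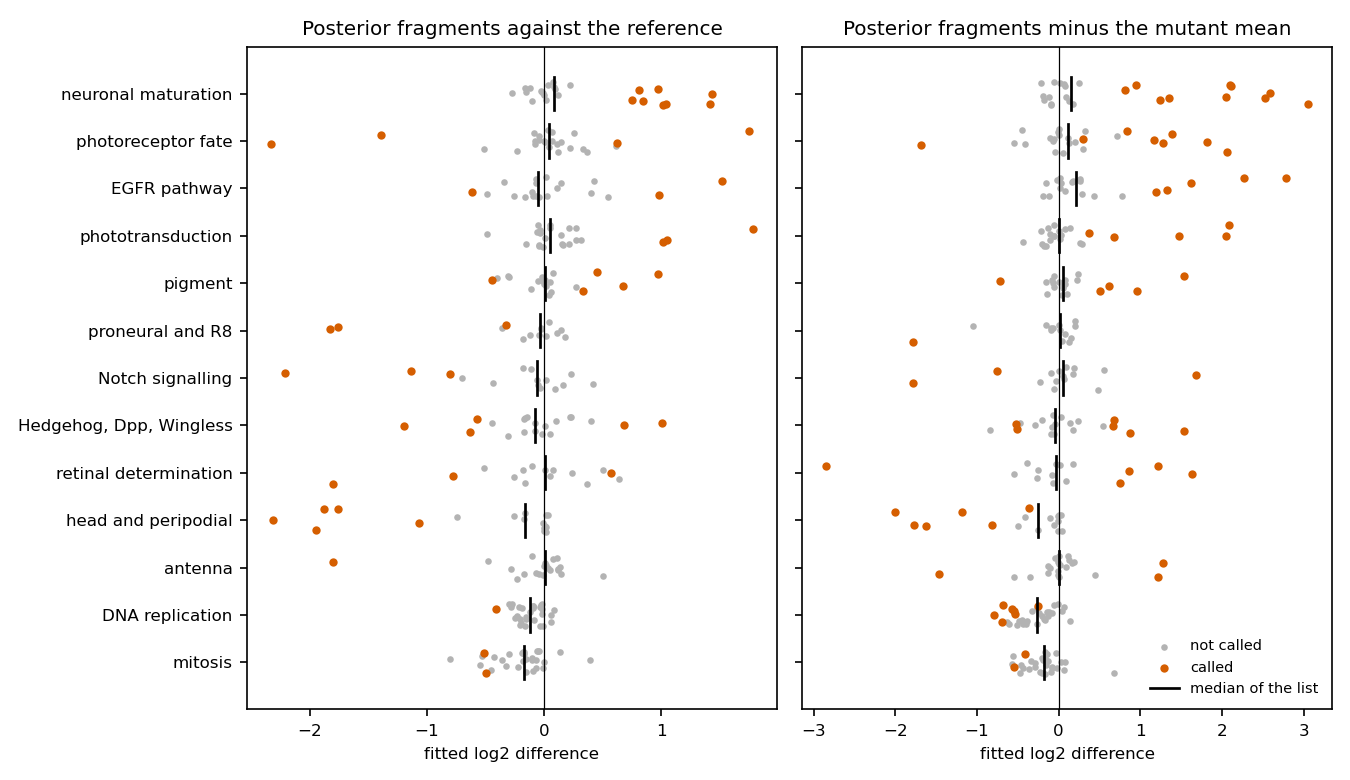
Fitted log2 differences of the members of 13 gene lists against the reference (left) and against the mean of the 8 mutant conditions (right), 1 point per gene, orange where the gene passed limma's test, with a black bar at each list's median. In the list for neuronal maturation 8 of 24 genes pass, all higher, while every list median lies between -0.27 and 0.22.

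A few genes with known roles at the furrow fell, while most of their list did not pass. Of 14 proneural and R8 genes 3 fell and none rose, with a median of -0.03. The bHLH repressor gene hry (hairy), which holds back differentiation in front of the furrow, read -2.84, -1.48, 0.03 and -2.26, with replicate 3 apart, and its fitted change was -1.83 ± 0.34 (limma adjusted p = 0.0025). The Bearded family gene Brd read -3.99, -1.13, -0.44 and -1.46. Its fitted fall of 1.76 ± 0.35 became 1.04 ± 0.22 in size without replicate 1 and was still called (-1.04, adjusted p = 0.010). The gene ato itself read -0.16, -0.59, -0.26 and -0.34 and fell by 0.33 ± 0.09 (adjusted p = 0.045), from a probe whose spot was not found on replicate 1. The achaete-scute genes sc (-1.73, -1.71, -1.86 and -1.83) and ac (-1.36, -1.32, -1.10 and -1.33), proneural genes of bristles, fell by 1.74 ± 0.21 and 1.21 ± 0.12, with the test channel of ac above background on 2 posterior arrays.

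Notch ligands and their modifier were lower as well. Of 15 genes of Notch signalling 3 fell and none rose, with a median of -0.05. The ligand gene Ser (Serrate) read -1.44, -1.78, -2.10 and -3.15 and fell by 2.21 ± 0.32. The ligand gene Delta read -1.83, -0.48, -0.87 and -1.19 and fell by 1.14 ± 0.26, with other probes from -0.87 to -0.58. The glycosyltransferase gene fng, which modifies Notch, read -0.42, -1.14, -0.38 and -0.86 and fell by 0.80 ± 0.13. Against the mutants Ser (-1.78 ± 0.34) and fng (-0.76 ± 0.14) were lower too, and Delta was at -0.10 ± 0.29. The ubiquitin ligase gene neur, needed for Delta signalling, was at 0.16 against the reference and 1.68 ± 0.23 above the mutants, with all 4 arrays above the mutants' highest value of -0.43. Of 16 Notch targets the bHLH gene E(spl)mbeta-HLH rose (0.91, 0.41, 0.72 and 1.17, fitted 0.92 ± 0.12, another probe at 0.88), and Brd and its relative Tom (-0.88 ± 0.16) fell, with a list median of -0.08. The mutants also stood above the reference for E(spl)mbeta-HLH, with a mean of 0.74, and its difference from them was 0.18 ± 0.13 and not called. Ser, Delta and fng are also members of the 13 measured genes of the dorsal and ventral eye, of which they, mirr and bowl fell, none rose and the median was -0.25. The other Iroquois genes of that list, ara (0.15 ± 0.09) and caup (0.06 ± 0.07), did not pass.

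In the list of Hedgehog, Dpp and Wingless genes 2 of 20 rose and 3 fell, with a median of -0.07. The hedgehog gene hh, made behind the furrow, read 0.15, 0.99, 1.08 and 0.61 and rose by 0.69 ± 0.17 (limma adjusted p = 0.019). Every posterior array of hh was above 0 and every mutant array below it (-1.63 to -0.32). The gene of its transcription factor, ci, read -1.71, -0.67, -0.62 and -1.33 and fell by 1.20 ± 0.27, with other probes from -1.26 to -0.80. The BMP gene dpp of the furrow fell by 0.63 ± 0.11 (-1.02, -0.60, -0.33 and -0.51, another probe at -0.31), and the glypican gene dlp fell by 0.57 ± 0.11, with another probe at -0.14. The Wingless target fz3 read 2.15, 0.79, 0.15 and 1.13, with a fitted change of 1.01 ± 0.23 (adjusted p = 0.0098).

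Of the furrow and signalling genes, hh lost its call without replicate 2 (0.60), 3 (0.57) or 4 (0.71), as ato did (-0.25, -0.36 and -0.31). Delta, ci and fz3 lost theirs without replicate 1 (-0.89, -0.96 and 0.67) or 4 (-1.15, -1.24 and 0.92). Against the mutants the call of dpp was lost without replicate 1 (-0.39), that of dlp without replicate 3 (-0.44) and that of fz3 without replicate 1 (0.53) or 4 (0.78). Under the fixed day block hry, Ser, fng, dpp, sc and ac kept their calls, and ato, Brd (-0.74 ± 0.31), Tom, E(spl)mbeta-HLH (0.66 ± 0.21), Delta (-0.44 ± 0.35), hh (0.35 ± 0.28), ci and dlp did not, while fz3 turned to -0.11 ± 0.36. Against the mutants hry (-2.88 ± 0.78), hh (1.09 ± 0.34), dlp (-0.75 ± 0.20), sc (-1.5 ± 0.41) and ac (-1.02 ± 0.28) were not called under that block, and fz3 turned to -0.43 ± 0.44.

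The 3 strongest falls among the named genes were of secreted proteins and a glial gene. The peptidase gene Ance (angiotensin-converting enzyme related) read -4.88, -4.92, -4.85 and -4.56, against -1.32 to 2.17 on the mutant arrays. It fell by 4.69 ± 0.28 (limma adjusted p = 4e-09), with no overlap between the groups. The odorant-binding protein gene Obp99a read -3.41, -2.96, -3.02 and -3.06 (-2.95 ± 0.40), and bnb (bangles and beads), on the list of glial genes, read -3.71, -3.11, -3.57 and -3.78 (-3.56 ± 0.24). Both lay below every mutant array, and the test channel of each was above background on 3 posterior arrays.

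Among the genes ranked below them, the Toll family gene 18w read -1.73, -1.67, -0.31 and -2.23 (-1.69 ± 0.21), and the BMP1-like protease gene tok read -1.91, -0.84, -0.67 and -1.52 (-1.37 ± 0.23), below every mutant array. The cuticle protein gene Cpr51A fell by 1.55 ± 0.31, the transmembrane protease gene Sb (Stubble) by 1.38 ± 0.29, and Gfat1, of the amino sugar path that feeds chitin, by 1.10 ± 0.21. The cell surface gene NijA (ninjurin) fell by 1.10 ± 0.22. The proprotein convertase gene Fur1 (-1.25 ± 0.32, another probe at -0.04), the odorant-binding family gene Os-C (-1.49 ± 0.36), the cytochrome P450 gene Cyp4e2 (-1.29 ± 0.33) and the translocon subunit gene Sec61gamma (-1.16 ± 0.22) fell too, and all 4 overlapped the mutants. Os-C read -0.68, -1.54, -2.12 and -1.76 and Cyp4e2 -0.37, -1.31, -2.14 and -1.37, so replicate 1 was nearest to 0 in both. The chitin deacetylase gene Cda4 read -1.09, -0.99, -1.11 and -0.90, below every mutant array, and fell by 1.06 ± 0.15 (other probes from -0.91 to 0.07). The gluconeogenesis gene Pepck1 was at -1.75 ± 0.57 against the reference (adjusted p = 0.092) and at -2.24 ± 0.62 against the mutants.

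Many of these falls depended on single arrays or on the day. Without replicate 4 the calls of Sb (-1.23), Cpr51A (-1.5), Gfat1 (-0.94), NijA (-1.05) and Sec61gamma (-1.05) were lost. Fur1 lost its call without any 1 array (-1.31 to -1.17), without the dye term (-1.16) and with replicate 1 held to found spots (-1.21). Os-C and Cyp4e2 lost theirs without replicate 2 (-1.5 and -1.29), 3 (-1.31 and -1.02) or 4 (-1.35 and -1.24). Against the mutants Pepck1 lost its call without replicate 1 (-2.07), 3 (-2.27) or 4 (-2.05). The lower value of NijA against the mutants (-0.83 ± 0.24) was lost without replicate 2 (-0.80), 3 (-0.78) or 4 (-0.78). Under the fixed day block Ance, bnb (-2.32 ± 0.30), Gfat1 and NijA kept their calls, and Obp99a (-2.95 ± 0.88), 18w (-1.69 ± 0.42), tok (-1.84 ± 0.46), Cpr51A (-0.95 ± 0.45) and Sb (-0.46 ± 0.52) did not. Nor did Fur1 (-0.24 ± 0.28), Sec61gamma (-0.01 ± 0.36) and Cda4 (-0.36 ± 0.32), while Os-C (0.65 ± 0.50) and Cyp4e2 (0.48 ± 0.51) changed sign. Against the mutants the block ended the calls of Obp99a (-4.10), bnb (-0.84), 18w (-1.32), Cpr51A (-1.22), Gfat1 (-0.97), Cda4 (-0.92) and Pepck1 (-3.05). Within the shared scanning day the mean of replicates 2 to 4 lay below ato1 replicate 1 by -4.90 for Ance and -4.21 for Obp99a, but by -0.65 for bnb.

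Some genes that fell against the reference were not called against the mutants. The RNA-binding gene msi (Musashi) read -2.36, -0.12, -0.58 and -1.39 and fell by 1.28 ± 0.29, and on the mutant arrays it ran from -2.73 to -0.28, all below 0. Its difference from the mutants was 0.03 ± 0.32 (limma adjusted p = 0.98). The helicase-like gene lds (lodestar) fell by 1.23 ± 0.20 with a difference from the mutants of -0.57 ± 0.21, and the ecdysone-induced gene br (Broad) fell by 0.99 ± 0.22 with a difference of -0.01 ± 0.23. For Sb, ttk, Delta and Tom the differences from the mutants were likewise not called, at -0.45, -0.45, -0.10 and -0.08. Among these 7 genes the mean of the mutants was thus close to the fragments for msi, br, Delta and Tom and nearer to 0 for lds (-0.66), Sb (-0.93) and ttk (-0.94). A p that misses the threshold does not show equality, and the extra amplification round of all test RNA is shared by both sides of that difference. Of the 30 lowest genes 19 were also called against the mutants, and of the 30 highest 27. Other falls named here were not called against the mutants either. They were pim (-0.08), or (-0.14), ato (-0.15), rl (-0.20), ey (-0.38), bowl (-0.50) and Sec61gamma (-0.56). Larger differences, also not called, were those of Cyp4e2 (-0.60), Fur1 (-0.78), ci (-0.84), Brd (-1.05) and Os-C (-1.22). For pim every mutant array lay below 0 (-1.07 to -0.08). The call of msi was lost without replicate 1 (-0.82) or 4 (-1.38) and without the dye term (-1.11), that of br without replicate 4 (-1.0), and those of msi (-0.72 ± 0.37), lds (-0.57 ± 0.31) and br (-0.38 ± 0.40) with the scanning day as a fixed block.

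**Figure D4:**
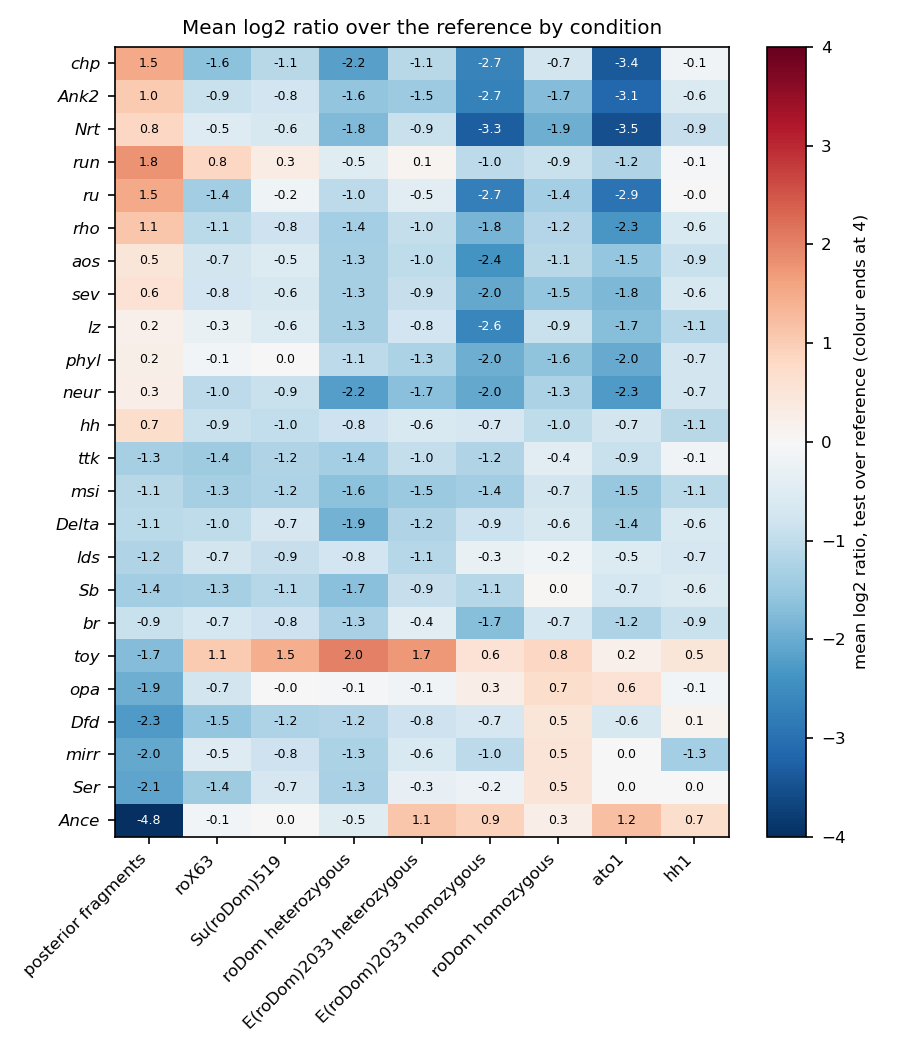
Mean log2 ratio over the reference of 24 genes in the posterior fragments and the 8 mutant conditions, as means over arrays without the dye term. Genes from chp to hh are above 0 in posterior fragments and mostly below 0 in the mutants, ttk to br are below 0 in the fragments and in nearly all mutants, and toy to Ance are lowest in the fragments.

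Cell cycle genes shifted little. Of 31 genes of DNA replication 1 fell against the reference and none rose, and of 30 genes of mitosis 2 fell and none rose, with medians of -0.12 and -0.17. The GINS subunit gene Psf2 fell by 0.41 ± 0.11, the securin gene pim by 0.50 ± 0.10 (other probes from -0.34 to -0.04) and the kinetochore gene Nuf2 by 0.51 ± 0.14. The list medians differed between arrays. They were -0.47 for replication and -0.52 for mitosis on replicate 1, and between -0.12 and 0.04 on replicates 2 to 4. Without replicate 1 the medians were 0.00 and -0.06.

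Against the mutants 7 of the 31 replication genes were lower and none higher, with a median of -0.27 (without replicate 1, 3 lower with a median of -0.20). They included the sliding clamp gene PCNA (-0.69 ± 0.18), the dUTPase gene (-0.79 ± 0.13) and the origin recognition gene Orc2 (-0.69 ± 0.16). The dUTPase probe read above 0 on all 23 mutant arrays (0.02 to 1.23) and at -0.42, -0.46, 0.18 and -0.05 in posterior fragments. The gene fzr (fizzy-related), an activator of the anaphase-promoting complex that holds cells in G1, read 0.49, 0.98, 0.39 and 0.30, above every mutant array (-0.88 to 0.18), and rose by 0.47 ± 0.12 (limma adjusted p = 0.032). The death gene rpr (reaper) was the single fall among 18 genes of cell death and JNK signalling (-0.68 ± 0.12), with none higher. Psf2, Nuf2 and fzr lost their calls without replicate 1 (-0.43, -0.38 and 0.51), 2 (-0.39, -0.52 and 0.35) or 4 (-0.31, -0.47 and 0.47), and pim lost its call without replicate 4 (-0.46). Against the mutants PCNA lost its call without replicate 1 (-0.55), Psf2 without replicate 4 (-0.44), and Nuf2 without replicate 1 (-0.42), 2 (-0.56) or 4 (-0.51). Under the fixed day block rpr kept its call, fzr (0.13 ± 0.23), Psf2, pim and Nuf2 did not, and fzr (0.43), Psf2 (-0.42), Nuf2 (-0.30), PCNA (-0.66), dUTPase (-0.93) and Orc2 (-0.71) were not called against the mutants.

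Lists for other tissues that a dissection can carry along mostly did not pass. None of 21 muscle, 13 fat body, 11 salivary glue and 12 heat shock genes was called against the reference. In the test channel of all 4 posterior arrays 7 muscle, 4 fat body, 0 glue and 11 heat shock genes were detected. Their arrays were not alike, however. The glue gene Sgs7 read -4.96, 0.25, -1.43 and -4.30 and the median of the 11 glue genes -0.58, -0.03, -0.06 and -1.21, so replicates 1 and 4 were low. The muscle myosin gene Mhc read -0.18, 0.94, 2.01 and 0.09, with replicate 3 high. The part of such tissue in the changes above was not tested. Of 15 hemocyte genes SPARC, a basement membrane gene, was the single call (1.87, 0.51, 0.39 and 1.79, fitted 1.14 ± 0.29), while Hml was at 0.46, NimC1 at 0.49, srp at -0.04 and Pxn at 0.08. SPARC lost its call without replicate 1 (0.91) or 4 (0.86), also against the mutants (1.10 and 1.06), and with the scanning day as a fixed block (1.70 ± 0.63, and 2.29 ± 0.77 against the mutants).

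Glial genes were mixed. Of 18 measured genes on the list 2 rose, Nrt and wrapper, and bnb fell, with a median of 0.06. Nrt is also on the list for neuronal maturation and is described above with the neuronal genes. The riser not shared with that list was wrapper. Against the mutants 5 of the 18 genes were higher and 2 lower. The glial receptor gene wrapper, needed for ensheathing axons, was even at 0.72, 0.73, 0.69 and 0.76 and rose by 0.68 ± 0.12 (limma adjusted p = 0.0014). The marker genes moody (0.23) and loco (0.51) did not pass. In the list of 9 tracheal genes the chitinase gene Cht2 rose (1.16, 0.76, 0.62 and 1.16, fitted 0.95 ± 0.11), and was not called with the scanning day as a fixed block (0.85 ± 0.27, and 0.76 ± 0.32 against the mutants), while trh (0.08) and btl (0.03) lay near 0. The chitinase-like growth factor gene Idgf2 of the cuticle list read 1.18, 0.19, 0.49 and 0.42 and rose by 0.57 ± 0.14, a call lost without replicate 1 (0.37), 3 (0.60) or 4 (0.64). The Vajk2 gene of the same list was at 0.21 ± 0.35 against the reference, but 2.08 ± 0.38 below the mutants in size (-2.08, adjusted p = 0.00093), whose arrays ran from -0.30 to 5.26. That call was lost with the scanning day as a fixed block (-2.47 ± 0.71).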

How the data were processed

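Per the file headers, the scanner files hold the pixel intensity of each spot in Cy3 and Cy5 with the local background, a percent of saturated pixels and a score that flags spots as bad or as not found. In the deposited table the authors' values are the log2 ratio of reference over test, used as an alternative only. The genome build is not given in the sources used here. Spots scored -75 or less were dropped, background was subtracted by normexp (offset 50) in limma 3.58.1 (R 4.3.3), each array was normalised by loess with control spots at weight 0 and signed so that test stands over reference, by the labelled dyes, and spots of a probe were averaged. A linear model over 27 arrays held a mean for each of 9 groups and the dye. Two-sided moderated tests were adjusted by Benjamini-Hochberg over 16492 probes, and a probe was called at an adjusted p under 0.05. Values are fitted log2 differences ± SE, values per array carry no dye term, and precision is limited by how many arrays a group has. A probe was detected in a channel where its mean exceeded the background median by more than 2 background SDs. Of 16498 probes 15501 matched a gene in the RefSeq table of the Release 6 assembly, and 997 stayed unnamed. A gene is represented by its brightest probe. In data simulated for the comparison with the reference over 16486 probes, 97% of changes of 1 and 100% of changes of 2 on the log2 scale were recovered, and 4.83% of calls were false. The simulated noise was independent between arrays, with the fitted spread of each probe on every array. It held no effect of scanning day and no noisier replicate 1, so these rates do not cover errors from either.

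The arrays of a group are numbered in accession order. The labels of 2 arrays of E(roDom)2033 homozygotes conflict on zygosity, and titles were used. For roDom homozygote replicate 2 the header gives the opposite dye order to the labels, which were followed. P-values measure the spread between these arrays. Members and gene lists were chosen with earlier results of these data known. Named genes are up to 30 highest and 30 lowest called genes that have a name beyond a CG number and the same sign on every posterior array, up to 15 each way against the mutants, up to 6 called members of each list, and textbook markers. All 100 genes of the first 3 kinds are in the text and in its counts of kept calls. A shorter set made after the alternatives were seen had left out 15 of them, several unstable, and these were put back. Their agreement in sign is fixed by this rule, and the lists get counts and medians but no test.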

Additional observations from a re-analysis of the deposited data

Results flagged for a closer look

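In 8 of the 125 genes with values in the text (6.4%), many of them chosen for their size or their difference from the mutants, the posterior fragments and the mutants lay on opposite sides of the reference on every array, above 0 in the 4 posterior arrays and below 0 in the 23 mutant arrays. The tested differences between the groups were 2.59 for Ank2, 2.26 for rho, 2.07 for nvy, 1.82 for sev, 1.80 for amon, 1.62 for aos, 1.54 for hh and 0.77 for gogo, each called by limma. Over all 11509 genes, 34 (0.295%) lay on opposite sides in this way. Under the fixed block by day, differences of sev (1.20), hh (1.09) and gogo (0.63) were not called.

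On replicate 1 the share of spots not found (56%) and the share of probes detected in at least 1 channel (48.6%) lay far from those of the other 3 posterior arrays. In 5 of the 125 genes with values in the text (4.0%) 1 array was flagged as far from the other 3, against 5.31% of all 16492 probes, and chance gives about 1 in 20. These were p at 0.44 and spidey at 0.94 on replicate 3, lab at -2.56 on replicate 4, ac at -1.10 on replicate 3 and PCNA at -0.65 on replicate 1. The flag does not mark every wide departure. Brd at -3.99 and Phk-3 at 3.02 on replicate 1 were not flagged.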

How the results depend on the processing

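Against the reference 780 probes were called, and 1409 against the mutants. Scale normalization between arrays gave 1531 against the reference. A fit on the posterior arrays alone gave 113, with 2575 at an unadjusted p under 0.05, scanning day as a fixed block 408 and as a random block 437, and a 2-fold limit 130. Against the mutants the fixed block gave 568, the random block 819 and the 2-fold limit 255. Leaving out 1 posterior array gave 279 to 556 calls against the reference and 711 to 1312 against the mutants, fewest without replicate 4 in both. Other alternatives left out the dye, the background step or dim probes, used loess by print tip, a stricter score limit for bad spots or the deposited table, or kept the 7th series alone. Together with 2 chosen after seeing the data, replicate 1 entering only where its spot was found and roDom homozygote replicate 2 turned by its header, they kept both counts within 1.5 times. Some of them tested fewer probes, so a like count is a larger share. The deposited table gave 732 of 7946 probes against the reference, 550 of them among the 780, and 1069 of 5616 against the mutants. Against the mutants the filter on dim probes tested 11575 probes and the stricter score limit 10371. Of 99 called genes with values in the text, 98 kept their calls with replicate 1 restricted to found spots. With roDom homozygote replicate 2 turned, 86 of the 99 kept theirs. The 13 lost were Ank2, Nrt, TkR86C, Fas2, rho, p, gogo, ey, ato, hh, fzr, Psf2 and SPARC. Calls were kept by 81 genes under the random block, 57 without replicate 4, 39 under the fixed block and 36 in the fit on the posterior arrays alone. Under the fixed block 55 lost their calls and 5 changed sign, namely fz3 (-0.11), hbn (-0.0265), p (-0.13), Os-C (0.65) and Cyp4e2 (0.48). The cause was not tested. Against the mutants 42 of 88 kept their calls under the fixed block, where p (-0.18) and fz3 (-0.43) changed sign, 84 under the random block and 79 without replicate 4. In the deposited table the column of hh1 replicate 2 equals that of Su(roDom)519 replicate 3 with the sign turned at 10353 of 10353 values and was left out. No paired analysis was possible because the labels give the arrays no replicate numbers. Dim signal limits Dfd and ac, detected in the test channel of 2 posterior arrays each.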
